A study of Mus musculus with 14 samples.

Results

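The 44 genes described here are the mouse collagen chain genes, taken as every gene whose symbol is Col, a type number, the letter a and a chain number, out of 24359 genes measured. They were divided into 11 fibrillar collagens, 6 basement membrane collagens (the type IV chains) and 27 other collagens. RNA was sequenced from the tibialis anterior, the shin muscle, of C57Bl/6 mice whose muscles were treated with follistatin or served as controls. Follistatin is secreted and binds myostatin and activins, ligands of the TGF-beta family that restrain the growth of muscle. The follistatin libraries numbered 4 at day 3, 2 at day 7 and 2 at day 14, and the control libraries numbered 3 at day 3, 2 at day 7 and 1 at day 14. Days 7 and 14 together form the study's chronic set of 4 follistatin and 3 control libraries. The authors' deposited comparisons name the control group MCS and the follistatin group FST. The labels give no route for the follistatin, no treatment for the controls and no age. They do not state whether replicates were separate animals, so every p-value here measures only the spread between these libraries.

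Collagens are the main fibrous proteins of the extracellular matrix, and each molecule is built of chains wound into a triple helix. Type I and type III collagens form the fibrils of the connective tissue that wraps muscle fibres and bundles, while type IV collagen forms the meshwork of the basement membrane around each fibre and capillary, and type VI collagen links these layers. In muscle, most collagen is made by fibroblasts and other cells between the fibres, and TGF-beta is a known inducer of fibrillar collagen genes.

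Libraries were compared as FPKM, a level scaled to the length of the transcript and to the mapped fragments of the library, as the authors deposited it. The treatment was visible in Fst, the gene of follistatin, at 57.6 ± 8.16 FPKM in follistatin libraries and 1.18 ± 0.212 FPKM in control libraries of day 3 (SD, n = 4 and 3). Over days 7 and 14 Fst ranged from 366.7 to 1421 FPKM in follistatin libraries, against 0.808 to 1.17 FPKM in control libraries. The 11 muscle fibre markers summed to 105900 to 124800 FPKM in follistatin libraries and 119400 to 129200 FPKM in control libraries of day 3. These sums cover different genes, since Myh4, a fast myosin heavy chain, is listed at 0 in all 4 follistatin libraries and at 8989 to 10500 FPKM in controls. Over the 8 markers that the authors did not mark as having too many reads at day 3, the sums were 78630 to 91120 FPKM with follistatin and 80170 to 86940 FPKM in controls. Acta1 and Atp2a1 were left out with Myh4 by that mark, though both are listed above 0 in all day 3 libraries. Of the 11 in the chronic set, 9 are listed at 0 in all follistatin libraries and 5 in all control libraries, because the authors' software gave no estimate for them, so the tissue was checked at day 3 only. Absolute read depth is unknown. Relative depth, from the steps between low values, was 0.688 to 1.28 times that of the first control library over the day 3 libraries, and could not be had for the chronic set. Follistatin day 14 replicate 2 stood apart in the type VI and type IV chains, as described below, and control day 7 replicate 1 listed 16158 genes above 0, where the rest of the chronic set listed 19383 to 20283.

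Markers of some other cell types also differed in level between the treatments. All of the values are in bulk tissue, where fewer cells of a type and less RNA per cell cannot be told apart. The 13 fibroblast markers summed to 612.5 to 739.4 FPKM with follistatin and 709.9 to 830.2 FPKM in controls at day 3. In the chronic set they summed to 424.0 to 588.4 FPKM with follistatin and 479.4 to 668.1 FPKM in controls, and these sums overlapped in both sets. Gene by gene, their median log2 change of FPKM + 1 at day 3 was -0.24, beside 0.01 over all genes, with 1 of 13 above 0. At an unadjusted p under 0.05 (limma) 5 were lower, beside 6.46% of all genes lower. The chronic median was -0.24, beside -0.09 over all genes, with 4 of 13 above 0. There 1 was lower at this threshold, beside 19.3% of all genes, and none was called in either set. The 13 endothelial markers summed to 176.9 to 202.3 FPKM with follistatin and 211.4 to 227.9 FPKM in controls at day 3. In the chronic set they summed to 120.7 to 196.7 FPKM with follistatin and 211.5 to 272.7 FPKM in controls, so these sums did not overlap in either set. Tek was called lower in the chronic set, where 3.27% of all genes tested were called lower. The 12 smooth muscle and pericyte markers summed to 260.1 to 325.7 FPKM with follistatin and 325.8 to 352.6 FPKM in controls at day 3. Their chronic sums were 86.8 FPKM in follistatin day 14 replicate 2 and 151.8 to 179.2 FPKM in the other 3 follistatin libraries, against 222.2 to 278.4 FPKM in controls. The 6 Schwann cell markers summed to 31.2 to 55.9 FPKM with follistatin and 33.5 to 45.1 FPKM in controls at day 3. In the chronic set they summed to 19.9 to 36.5 FPKM with follistatin and 42.1 to 93.7 FPKM in controls, which did not overlap. Of single genes tested, 15.1% at day 3 and 30.4% in the chronic set had groups that did not overlap, in either direction. No marker of these 4 lists was at 0 in all libraries of a group. The part of these cells in the collagen values was not tested.

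Collagens made up between 0.065% and 0.171% of the summed FPKM of a library. These sums lack the genes listed at 0 for want of an estimate, so the shares are not on 1 scale. In the chronic set they were 364513 to 433552 FPKM with follistatin and 485755 to 510584 FPKM in controls. The most abundant was Col3a1, the chain of type III collagen, with a mean of 121 FPKM over the 14 libraries, then Col1a2 at 98.3 FPKM and Col1a1 at 65.9 FPKM, the chains of type I collagen. Next came Col4a1 at 33.2 FPKM, Col6a1 at 29.9 FPKM, Col6a2 at 25.7 FPKM and Col4a2 at 25.6 FPKM. Of the 44 genes, 10 averaged at least 10 FPKM, 21 averaged under 1 FPKM, and 39 were above 0 in all 14 libraries. Fibrillar collagens held 55.5% to 69.0% of the collagen FPKM over the follistatin libraries and 59.3% to 68.3% over the control libraries. Type IV chains held 8.33% to 18.0% over the follistatin libraries and 10.5% to 18.8% over the control libraries.

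**Figure D1:**
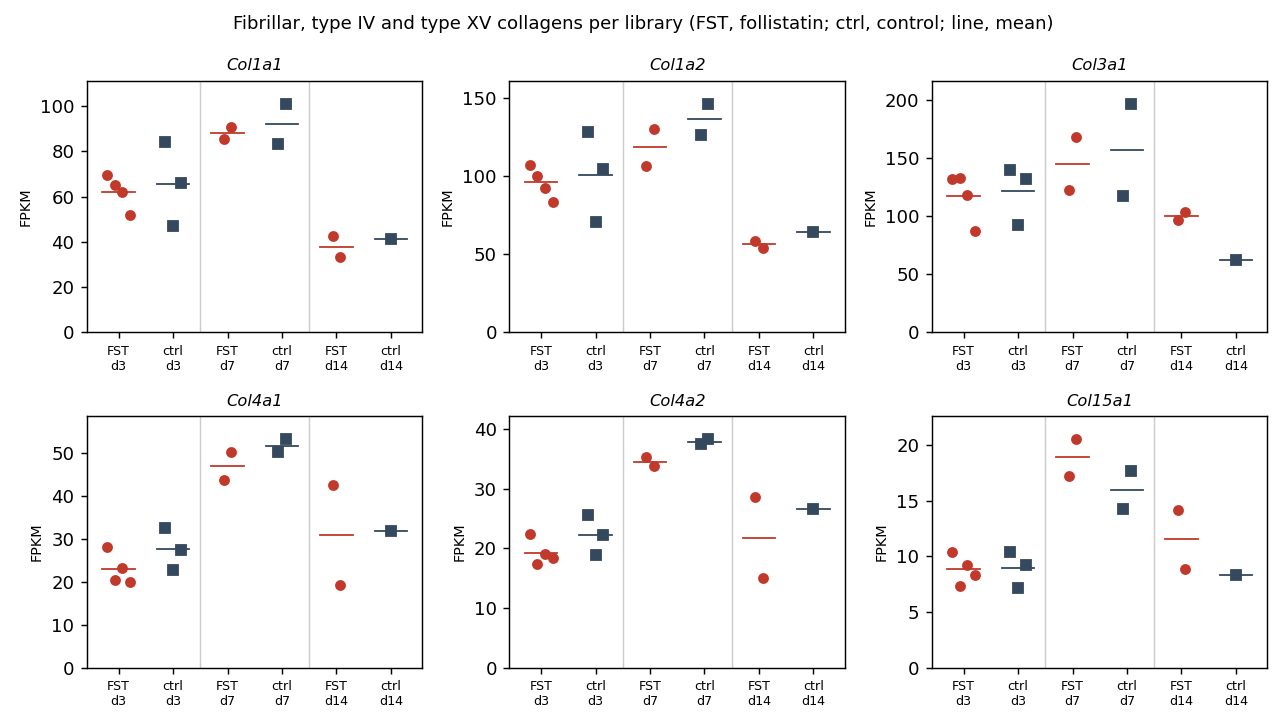
FPKM of 6 abundant collagen genes in each library, by treatment (FST, follistatin; ctrl, control) and day (d3, d7, d14), with a line at each group's mean. Follistatin and control points overlap at day 3 in all 6 genes, and the day 14 points of all 6 lie below their day 7 points.

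Few collagens passed the test, as was so of all genes tested, and this does not show that the others were unchanged. At day 3 none of the 22 collagens tested was called by limma at an adjusted p under 0.05, where 1.49% of all genes tested were called, and 1 (Col22a1, lower) had an unadjusted p under 0.05, against 15.2% of all genes in either direction and 6.46% lower. Of the 23 tested in the chronic set 1 was called, Col7a1, which rose, where 5.5% of all genes were called and 2.24% were called higher. Unadjusted p fell under 0.05 for 2 of the 23, Col7a1 and Col6a2, both higher, against 28.3% of all genes in either direction, 8.99% higher and 19.3% lower. After rescaling by the median ratio the shares of all genes were 12.2% higher and 14.1% lower, with the same 2 collagens. A collagen was tested where its mean over the set was at least 1 FPKM, which left 8 fibrillar, 2 basement membrane and 12 other collagens at day 3, with Col11a2 added in the chronic set.

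The authors' deposited table, made with Cuffdiff, marked 2 of the 20 collagens it tested at day 3 as significant, Col12a1 higher and Col22a1 lower, where it marked 6.26% of all genes it tested. The authors' deposited table for the chronic set marked 3 of 33 collagens, Col6a2, Col6a5 and Col7a1, all higher, where it marked 17.8% of all genes.

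By class, the medians lay on either side of 0. At day 3 the median log2 change of FPKM + 1, follistatin minus control, was -0.02 over the fibrillar, -0.22 over the basement membrane and 0.01 over the other collagens, beside 0.01 over all genes tested. The chronic set gave -0.04 over the fibrillar, -0.29 over the basement membrane and 0.13 over the other collagens, beside -0.09 over all genes. The chronic fibrillar median was 0.02 after rescaling by the median ratio and 0.05 after quantile normalization, and the day 3 median of the other collagens was -0.00 and -0.01, so neither has a direction that holds under every scaling. The basement membrane median, of Col4a1 and Col4a2 alone, stayed below 0 under both scalings but was -0.00 in the chronic set without follistatin day 14 replicate 2. Without that library the chronic fibrillar median was 0.09 and the median of the other collagens was 0.29. Without control day 14 replicate 1, the only control of its day, the chronic medians were -0.29 over the fibrillar, -0.48 over the basement membrane and -0.07 over the other collagens.

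**Figure D2:**
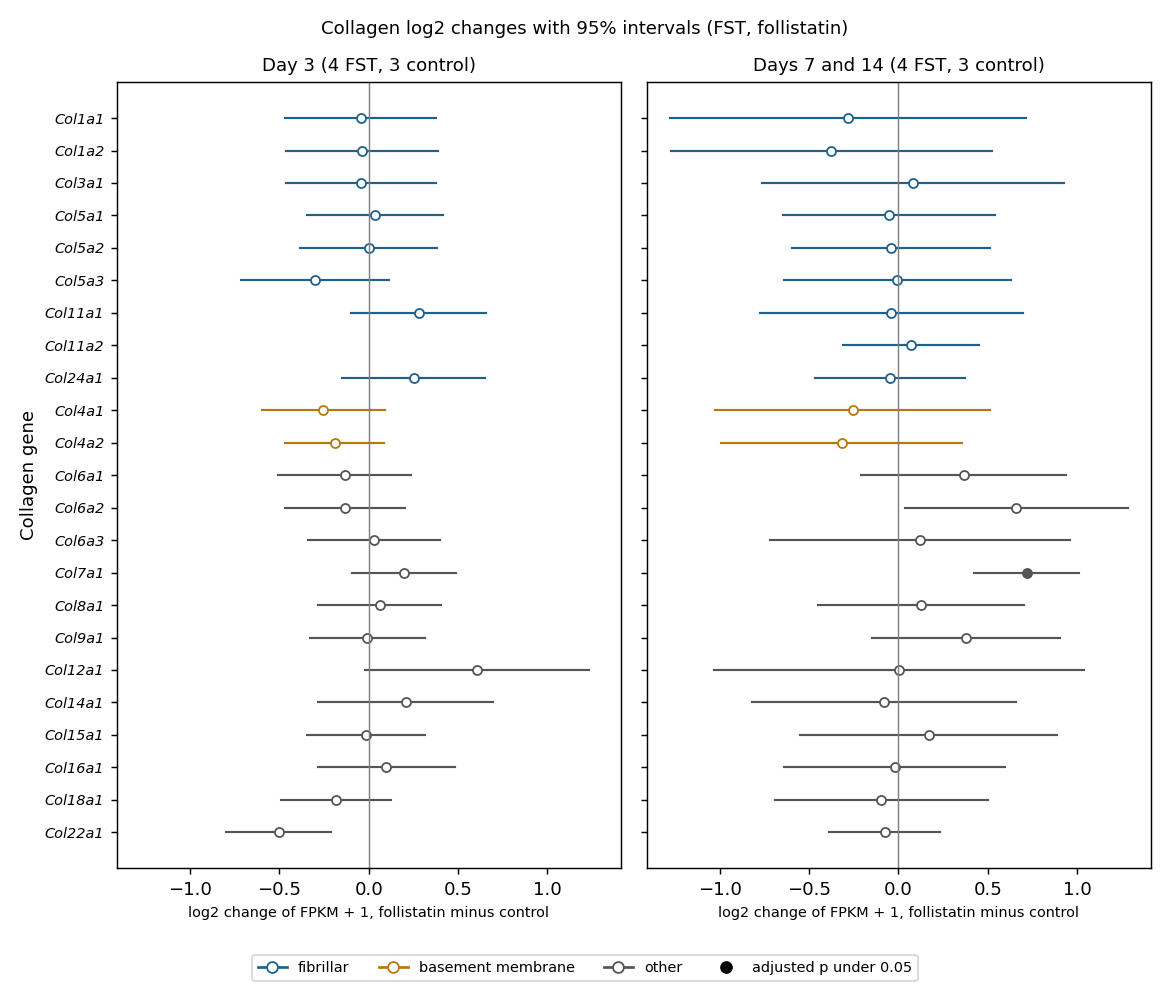
Log2 change of FPKM + 1, follistatin minus control, of each collagen tested at day 3 (left) and in the chronic set (right), with 95% confidence intervals, coloured by class. Filled points have an adjusted p under 0.05, which Col7a1 alone reached, in the chronic set.

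The difference between the 2 effects (chronic minus day 3), tested as an interaction over the 14 libraries, was called by limma for 0 of 23 collagens, where 0.0884% of all genes were called. Its unadjusted p was under 0.05 for 3 collagens, all above 0 (Col7a1, Col6a2 and Col22a1), against 14.8% of all genes in either direction and 2.99% above 0. That last share depends on the scaling: after rescaling by the median ratio 5.99% of all genes lay above 0 at this threshold and 6.07% below, where the deposited values gave 11.9% below, with the same 3 collagens above. The median of this difference was 0.07 over the 23 collagens and -0.11 over all genes. The authors deposited a separate Cuffdiff comparison for each set, and the FPKM of the 2 sets may have been scaled separately. Levels are therefore not compared between day 3 and the chronic set.

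Among the fibrillar collagens, the 3 abundant chains overlapped between treatments at every time with more than 1 control library. Col3a1 read 132, 133, 118 and 87.0 FPKM in the follistatin libraries of day 3 (replicates 1 to 4), against 139, 92.7 and 131 FPKM in controls (replicates 1 to 3). Over days 7 and 14 Col3a1 read 122.5 and 168 FPKM at day 7, then 96.8 and 104 FPKM at day 14 with follistatin, against 118 and 196 FPKM at day 7 and 62.5 FPKM at day 14 in controls. The single control library of day 14 was the lowest of the set, and the follistatin values lay inside the range of the control values. Its log2 change was -0.04 (95% confidence interval -0.46 to 0.38, adjusted p = 0.941) at day 3 and 0.08 (-0.76 to 0.93, adjusted p = 0.894) in the chronic set. The chronic value was -0.34 without control day 14 replicate 1 and 0.48 without control day 7 replicate 2. These intervals leave room for changes of either sign.

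Col1a2 read 107, 100.4, 92.9 and 83.8 FPKM with follistatin at day 3, against 128, 70.5 and 105 FPKM in controls. Its chronic libraries read 107 and 130.5 FPKM at day 7, then 58.8 and 54.1 FPKM at day 14 with follistatin, against 127 and 146.5 FPKM at day 7 and 64.3 FPKM at day 14 in controls. The controls of day 3 spanned the follistatin values, and at days 7 and 14 the lowest value was in a follistatin library. Its log2 change was -0.04 (adjusted p = 0.950) at day 3 and -0.37 (95% confidence interval -1.27 to 0.52, adjusted p = 0.535) in the chronic set. Its chronic value was -0.73 without control day 14 replicate 1 and -0.14 without control day 7 replicate 2. The ratio of Col1a1 to Col1a2, whose chains join in type I collagen, stayed between 0.612 and 0.802 in all 14 libraries.

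Type V and type XI collagens sit inside fibrils and limit their width. The type V chains had log2 changes of -0.30 (Col5a3), 0.04 (Col5a1) and 0.00 (Col5a2) at day 3, and of -0.01, -0.05 and -0.04 in the chronic set. Col11a1 read 2.74, 2.00, 2.15 and 2.02 FPKM with follistatin at day 3, against 2.28, 1.55 and 1.22 FPKM in controls. The highest control lay among the follistatin values, and its log2 change was 0.28 (SE 0.16, adjusted p = 0.480), and 0.15 without control day 3 replicate 3. Col24a1, a minor fibrillar chain, had log2 changes of 0.25 at day 3 and -0.05 in the chronic set. Col2a1, the chain of cartilage collagen, and Col27a1 stayed at means of 0.228 and 0.536 FPKM and were not tested.

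Col3a1 lies on the plus strand at chr1:45311538-45349706 (mm10), and shares 141 exon bases with the microRNA gene Gm47302. The 250 bases upstream of its start are shown because it is the most abundant collagen here, with capitals for the letters TATAAA, 117 to 112 bases upstream (RefSeq, GRCm38.p6, chr1:45311288-45311537, plus strand).
Col3a1: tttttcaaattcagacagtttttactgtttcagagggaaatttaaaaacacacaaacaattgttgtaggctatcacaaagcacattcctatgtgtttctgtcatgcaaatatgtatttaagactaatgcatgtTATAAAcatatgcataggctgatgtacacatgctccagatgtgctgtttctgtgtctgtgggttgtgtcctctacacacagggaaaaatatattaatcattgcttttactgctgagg
The letters TATAAA, on either strand, stood in 12.4% of 32851 such windows of all genes and in 13.2% of the 38 windows of the 35 collagens that matched the table. CCAAT stood in 33.8% of all windows and 34.2% of collagen windows, and GGGCGG in 32.7% and 57.9%. GTCTAGAC, a Smad binding palindrome, stood in 0.167% of all windows and in 0 collagen windows, which says only that these letters are not in them.

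Of the basement membrane collagens, Col4a1 and Col4a2 were abundant. They lie head to head on chromosome 8, Col4a1 on the minus strand at chr8:11198423-11312826 and Col4a2 on the plus strand at chr8:11312805-11449287, and share 22 exon bases at their starts, whose reads cannot be told apart, since the strand setting is not given in the sources used here. Col4a1 read 28.2, 20.4, 23.2 and 19.9 FPKM with follistatin at day 3, against 32.5, 22.8 and 27.4 FPKM in controls. Col4a1 then read 43.8 and 50.1 FPKM at day 7, then 42.5 and 19.3 FPKM at day 14 with follistatin, against 50.2 and 53.2 FPKM at day 7 and 32.0 FPKM at day 14 in controls. Follistatin values overlapped the controls at day 3, lay under both controls at day 7, and lay on either side of the control at day 14, with replicate 2 the lowest of the chronic set. Its log2 change was -0.25 (95% confidence interval -0.60 to 0.09, adjusted p = 0.481) at day 3 and -0.26 (-1.02 to 0.51, adjusted p = 0.625) in the chronic set. Without follistatin day 14 replicate 2 the chronic value was 0.04, and without control day 14 replicate 1 it was -0.48.

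Col4a2 read 22.4, 17.4, 19.0 and 18.4 FPKM with follistatin at day 3, against 25.5, 18.9 and 22.2 FPKM in controls. Col4a2 then read 35.3 and 33.7 FPKM at day 7, then 28.6 and 15.0 FPKM at day 14 with follistatin, against 37.4 and 38.3 FPKM at day 7 and 26.5 FPKM at day 14 in controls. It followed Col4a1: the groups overlapped at day 3, and the lowest chronic value was again in follistatin day 14 replicate 2. Its log2 change was -0.19 (adjusted p = 0.520) at day 3 and -0.32 (adjusted p = 0.495) in the chronic set, and in the chronic set -0.05 without that library and -0.48 without control day 14 replicate 1. The ratio of Col4a1 to Col4a2 lay between 1.08 and 1.49 in all 14 libraries. The chains of the other type IV networks, Col4a3 to Col4a6, averaged 0.191 to 0.689 FPKM and were not tested. Endothelial cells are a known source of type IV collagen, and the endothelial marker sums given above were lower with follistatin, while neither type IV chain passed the test in either set. Their part in these values was not tested.

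Among the other collagens, the member with the smallest p at day 3 was Col22a1, a collagen of the junction between muscle and tendon that associates with fibrils (chr15:71795795-72034227, minus strand). It read 3.67, 3.38, 3.64 and 4.03 FPKM with follistatin at day 3, against 6.71, 4.48 and 5.88 FPKM in controls. Every follistatin library lay below every control, the only such case among the 22 collagens tested, where 15.1% of all genes had groups that did not overlap and 6.8% had follistatin below. The ratio of means was 0.646 and the log2 change was -0.50 (SE 0.13, 95% confidence interval -0.80 to -0.21), which did not pass the adjusted threshold (adjusted p = 0.116, limma). The adjusted p ranged from 0.0853 to 0.327 when each library was left out in turn. The authors' deposited table marked Col22a1 as significantly lower at day 3, with a log2 fold change of -0.67. Over days 7 and 14 it read 5.94 and 6.92 FPKM at day 7, then 6.25 and 4.64 FPKM at day 14 with follistatin, against 6.87 and 6.40 FPKM at day 7 and 5.57 FPKM at day 14 in controls, and the groups overlapped (log2 change -0.08, adjusted p = 0.725). The difference between the effects was 0.43 (adjusted p = 0.314). The 9 tendon markers summed to 100.1 to 149.2 FPKM with follistatin and 109.2 to 191.6 FPKM in controls at day 3, all above 0 in some library, and their part in the Col22a1 value was not tested.

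Col12a1 encodes a collagen that sits on the surface of type I fibrils in tendon and in the muscle's connective tissue. It read 7.10, 6.39, 6.08 and 4.04 FPKM with follistatin at day 3, against 5.56, 3.70 and 1.89 FPKM in controls. The controls were widely spread, and the highest control exceeded the lowest follistatin library. The log2 change was 0.61 (SE 0.27, 95% confidence interval -0.02 to 1.23, adjusted p = 0.344, limma), while the authors' deposited table marked it as significantly higher, at a log2 fold change of 0.62. Without control day 3 replicate 3 the log2 change was 0.29. The chronic log2 change was 0.00 (95% confidence interval -1.03 to 1.04). Of the related fibril-associated collagens, Col14a1 had log2 changes of 0.21 and -0.08 and Col16a1 of 0.10 and -0.02, at day 3 and in the chronic set.

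**Figure D3:**
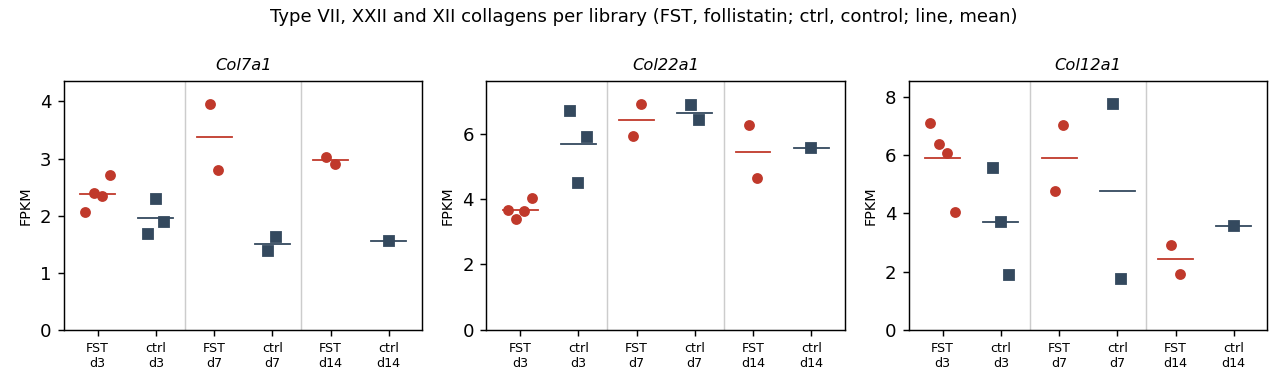
FPKM of Col7a1, Col22a1 and Col12a1 in each library, by treatment (FST, follistatin; ctrl, control) and day, with a line at each group's mean. Follistatin lies above control for Col7a1 at days 7 and 14 and below control for Col22a1 at day 3, while Col12a1 overlaps at days 3 and 7.

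Col7a1, which rose in the chronic set, encodes the chain of type VII collagen. This collagen forms the anchoring fibrils that tie the basement membrane of skin to the tissue beneath. It read 3.96 and 2.79 FPKM at day 7, then 3.04 and 2.90 FPKM at day 14 with follistatin, against 1.39 and 1.63 FPKM at day 7 and 1.55 FPKM at day 14 in controls. All 4 follistatin libraries lay above all 3 controls, the only such collagen of the 23, where 30.4% of all genes had groups that did not overlap and 8.96% had follistatin above. The means were 3.17 ± 0.536 FPKM with follistatin and 1.52 ± 0.125 FPKM in controls (SD, n = 4 and 3), a ratio of 2.08. The log2 change of FPKM + 1 was 0.72 (SE 0.13, 95% confidence interval 0.43 to 1.01, adjusted p = 0.0238, limma), and the authors' deposited table gives a log2 fold change of 1.07.

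At day 3 Col7a1 read 2.07, 2.40, 2.34 and 2.72 FPKM with follistatin, against 1.68, 2.29 and 1.89 FPKM in controls. One control lay among the follistatin libraries, and the log2 change was 0.20 (95% confidence interval -0.09 to 0.49, adjusted p = 0.527). The difference between the chronic and the day 3 effect was 0.52 (95% confidence interval 0.15 to 0.89, adjusted p = 0.229), so the effects are not shown to differ. The chronic call rests on few libraries: the adjusted p was 0.0589 to 0.141 when any of the 3 controls or follistatin day 14 replicate 1 was left out. The log2 change stayed between 0.63 and 0.76 when each library was left out in turn. Without follistatin day 14 replicate 2 the adjusted p was 0.0374. The 9 macrophage markers of the chronic set summed to 239.0 FPKM in follistatin day 14 replicate 2 and 75.6 to 92.2 FPKM in the other 3 follistatin libraries, against 47.4 to 126.6 FPKM in controls, with none at 0 throughout. Their part in the Col7a1 value, and that of the other cell types above, was not tested.

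Col7a1 lies at chr9:108953586-108984875 (mm10, plus strand), and its exons overlap another gene only in the 36 bases of the microRNA gene Mir711. The 250 bases upstream of its start are shown because it is the called collagen, with capitals for CCAAT (read on the other strand as ATTGG), 249 to 245 bases upstream, and GGGCGG, 61 to 56 bases upstream (RefSeq, GRCm38.p6, chr9:108953336-108953585, plus strand).
Col7a1: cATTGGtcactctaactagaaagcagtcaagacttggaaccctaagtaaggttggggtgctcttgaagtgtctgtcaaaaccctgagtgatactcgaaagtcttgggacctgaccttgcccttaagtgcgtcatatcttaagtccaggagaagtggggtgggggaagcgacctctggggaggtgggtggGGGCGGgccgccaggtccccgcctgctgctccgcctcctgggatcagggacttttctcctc

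Type VI collagen forms beaded filaments around muscle fibres, from chains encoded by Col6a1, Col6a2 and Col6a3, and its loss causes muscular dystrophy. Col6a2 read 34.7 and 34.4 FPKM at day 7, then 25.95 and 38.45 FPKM at day 14 with follistatin, against 21.4 and 31.0 FPKM at day 7 and 12.9 FPKM at day 14 in controls. Follistatin lay above control on each day, but the lower follistatin value of day 14 lay below the higher control of day 7. The log2 change was 0.66 (SE 0.27, 95% confidence interval 0.04 to 1.28) and was not called (adjusted p = 0.159, limma), while the authors' deposited table marked it as significant at a log2 fold change of 0.62. Without control day 14 replicate 1 the log2 change was 0.35. At day 3 Col6a2 read 23.6, 23.3, 23.6 and 17.65 FPKM with follistatin, against 27.4, 19.4 and 26.2 FPKM in controls, and the groups overlapped (log2 change -0.13, adjusted p = 0.734).

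Col6a1 read 33.6 and 38.1 FPKM at day 7, then 26.6 and 40.5 FPKM at day 14 with follistatin, against 27.4 and 37.4 FPKM at day 7 and 17.8 FPKM at day 14 in controls. At day 3 it read 27.6, 30.0, 29.3 and 21.2 FPKM with follistatin, against 34.0, 23.0 and 32.8 FPKM in controls. The groups overlapped in both sets, with log2 changes of 0.37 (adjusted p = 0.354) in the chronic set and -0.14 (adjusted p = 0.754) at day 3. The chronic value was 0.095 without control day 14 replicate 1 and 0.61 without control day 7 replicate 2. The ratio of Col6a2 to Col6a1, looked at after the values were seen and not tested, was 1.03 and 0.901 at day 7 and 0.977 and 0.950 at day 14 with follistatin, against 0.782 and 0.8292 at day 7 and 0.727 at day 14 in controls. All 4 follistatin ratios of the chronic set lay above its 3 control ratios. Of single genes tested in that set, 30.4% had groups that did not overlap. Several chain ratios were looked at, and that of Col4a4 to Col4a3, both low genes, also separated in that set. It was 0.3355 to 0.4145 with follistatin and 0.4958 to 0.7802 in controls. At day 3 the ratio of Col6a2 to Col6a1 was 0.779 to 0.854 with follistatin and 0.798 to 0.840 in controls, and the follistatin range took in the controls.

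Follistatin day 14 replicate 2 differed from the other 13 libraries in its type VI chains. Its ratio of Col6a3 to Col6a1 was 0.157, against 0.379 to 0.537 in the others. Its Col6a3 level was 6.35 FPKM, against 12.4 FPKM in the other follistatin library of day 14 and 6.74 FPKM in the control of day 14. Col6a5, a chain that can take the place of Col6a3 in type VI collagen and is known from skin, read 3.43 FPKM in this library and 0.0471 to 0.272 FPKM in the other 13. The authors' deposited table marked Col6a5 as significantly higher in the chronic set, with a log2 fold change of 3.07. The other follistatin libraries of that set read 0.0751 and 0.157 FPKM at day 7 and 0.127 FPKM at day 14, against 0.0471 and 0.151 FPKM at day 7 and 0.146 FPKM at day 14 in controls, so those groups overlap. Col6a5 was not tested here, having a mean under 1 FPKM. The 250 bases upstream of Col6a5 (chr9:105856078-105960643, minus strand) are shown because 1 library holds its signal, with capitals for GGGCGG, 57 to 52 bases upstream (RefSeq, GRCm38.p6, chr9:105960644-105960893, minus strand).
Col6a5: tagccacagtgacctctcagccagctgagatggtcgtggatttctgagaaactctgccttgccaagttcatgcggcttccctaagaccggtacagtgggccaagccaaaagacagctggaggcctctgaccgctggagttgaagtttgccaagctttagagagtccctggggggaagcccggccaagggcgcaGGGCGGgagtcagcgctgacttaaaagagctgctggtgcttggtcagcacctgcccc

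**Figure D4:**
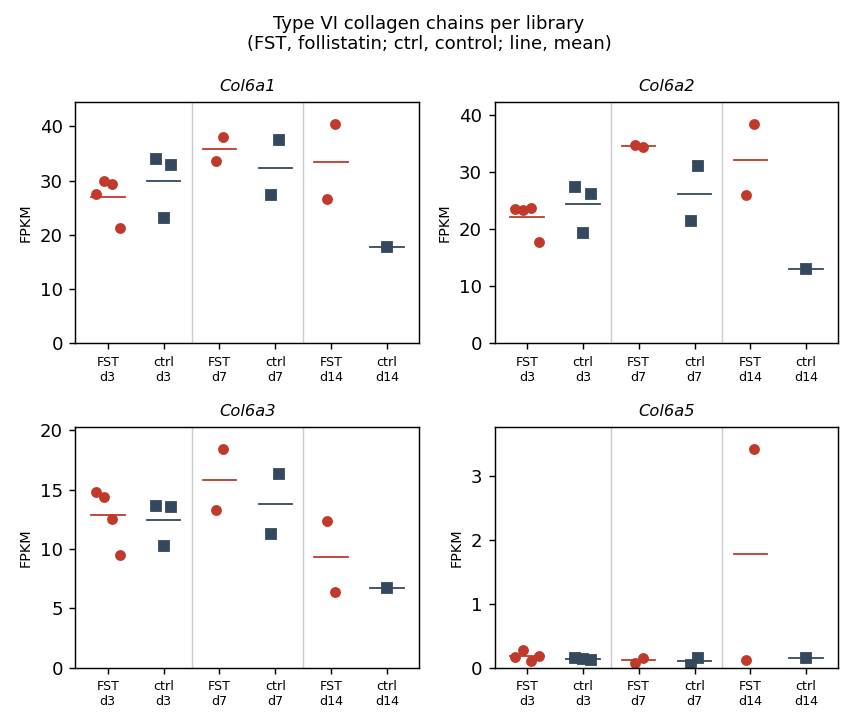
FPKM of the type VI collagen chains Col6a1, Col6a2, Col6a3 and Col6a5 in each library, by treatment (FST, follistatin; ctrl, control) and day, with a line at each group's mean. Col6a5 reaches 3.43 FPKM in follistatin day 14 replicate 2 and at most 0.272 FPKM elsewhere.

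Col9a1, a fibril-associated collagen of cartilage, had the third smallest p of the chronic set. It read 1.81 and 2.03 FPKM at day 7, then 2.44 and 2.90 FPKM at day 14 with follistatin, against 0.801 and 1.54 FPKM at day 7 and 2.47 FPKM at day 14 in controls. The groups overlapped, with a log2 change of 0.38 (SE 0.23, adjusted p = 0.301). This was 0.14 without control day 7 replicate 1 and 0.61 without control day 14 replicate 1. Col15a1 and Col18a1, collagens of basement membrane zones around fibres and vessels, had log2 changes of -0.01 and -0.18 at day 3 and of 0.17 and -0.09 in the chronic set. Col8a1, a short-chain collagen of vessel walls, had log2 changes of 0.06 and 0.13. The 21 collagens that averaged under 1 FPKM over the 14 libraries were not tested in either set, and were between 0.0536 FPKM (Col10a1) and 0.818 FPKM (Col20a1) on average. Among the 22 collagens not tested at day 3, the follistatin libraries lay above every control for Col13a1 and below every control for Col6a4, where 15.1% of the genes that were tested did not overlap (8.31% above, 6.8% below). Among the 21 not tested in the chronic set, the follistatin libraries lay above every control for Col9a2, where 8.96% of the genes tested did so.

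Within the chronic set, collagen levels were lower at day 14 than at day 7 in many members, under both treatments. This comparison was added after the values were seen. With follistatin, Col1a1 read 42.6 and 33.1 FPKM at day 14, against 85.5 and 90.8 FPKM at day 7. In controls it read 41.3 FPKM at day 14, against 83.4 and 100.9 FPKM at day 7. All day 14 libraries lay below all day 7 libraries, and within each day the treatments overlapped. With treatment in the model, the log2 difference of day 14 minus day 7 was -1.18 for Col1a1 (SE 0.13) and -1.06 for Col1a2 (SE 0.12), and neither was called (adjusted p = 0.0538 for both, limma).

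Of the 23 collagens tested, 22 were below 0 in this comparison and Col9a1 was above it. None was called, where 0.0724% of all genes were called, and 14 had an unadjusted p under 0.05 (13 lower, 1 higher), where 8.45% of all genes did (6.49% lower and 1.96% higher). After rescaling by the median ratio 12 collagens were lower and 1 higher at this threshold, where 4.24% of all genes were lower and 3.2% higher. Every day 14 library lay below every day 7 library for 11 of the 23 collagens, where 4.92% of all genes did so. These were 6 fibrillar collagens (Col1a1, Col1a2, Col3a1, Col5a1, Col5a2 and Col5a3), both type IV chains tested, and Col15a1, Col16a1 and Col18a1. The median log2 difference was -0.61 over the fibrillar, -0.65 over the basement membrane and -0.42 over the other collagens, and -0.04 over all genes tested. Col7a1 stood at -0.07 (95% confidence interval -0.38 to 0.25) and Col22a1 at -0.21 (-0.49 to 0.07).

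The 13 fibroblast markers summed to 424.0 to 479.4 FPKM in the day 14 libraries and 522.8 to 668.1 FPKM in the day 7 libraries, with a median log2 difference of -0.32 and 0 of 13 above 0. The 9 tendon markers summed to 49.4 to 101.4 FPKM at day 14 and 104.8 to 144.8 FPKM at day 7, and Tnmd was called lower. The 13 endothelial markers summed to 120.7 to 211.5 FPKM at day 14 and 178.3 to 272.7 FPKM at day 7. Smooth muscle and pericyte markers had a median log2 difference of -0.44, with 1 of 11 above 0. For adipocyte markers it was -0.60, with 0 of 4 above 0. Schwann cell markers stood at 0.03, with 4 of 5 above 0, and macrophage markers at 0.11, with 6 of 9 above 0. The sums pool both treatments, whose share of the libraries differs between the days. No marker of these lists was at 0 throughout, and their part in the collagen difference was not tested. The labels do not say whether the days were handled together, so day and any batch cannot be told apart.

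**Figure D5:**
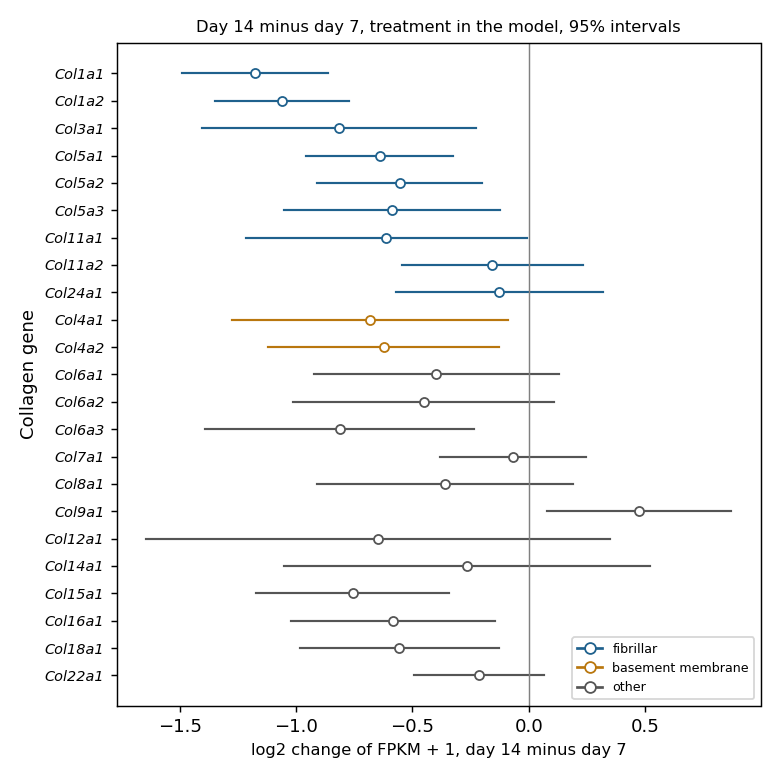
Log2 difference of FPKM + 1, day 14 minus day 7, of the 23 collagens tested in the chronic set, with treatment in the model and 95% confidence intervals, coloured by class. All except Col9a1 lie below 0, with Col1a1 at -1.18 and Col1a2 at -1.06 the lowest.

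Genes that make, process, cut and bind collagen gave no called member in either set, where 1.49% of all genes were called at day 3 and 5.5% in the chronic set. Of the enzymes and chaperones that fold and modify the chains, 17 of 19 were tested, and 1 at day 3 (higher) and 4 in the chronic set (1 higher, 3 lower) had an unadjusted p under 0.05, beside 15.2% and 28.3% of all genes. The smallest p of the chronic set belonged to P4ha2, a subunit of collagen prolyl 4-hydroxylase, at 9.63 ± 1.39 FPKM with follistatin and 13.9 ± 0.858 FPKM in controls (SD, n = 4 and 3), a log2 change of -0.50 (adjusted p = 0.0587, limma). Colgalt1, which adds galactose to hydroxylysine, averaged 13.7 ± 0.825 FPKM with follistatin and 17.8 ± 0.587 FPKM in controls, a log2 change of -0.36 (adjusted p = 0.0597). At day 3 the smallest p belonged to P3h4 (log2 change 0.31, adjusted p = 0.242) and P4hb, the partner subunit of prolyl 4-hydroxylase (0.14, adjusted p = 0.349). The median of the list was 0.07 at day 3 and -0.10 in the chronic set, beside 0.01 and -0.09 over all genes.

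Of the 13 genes for propeptide removal and cross-linking, 9 were tested at day 3 and 8 in the chronic set, with 2 and 1 at an unadjusted p under 0.05, all lower, beside 6.46% and 19.3% of all genes lower. Pcolce2 and Pcolce, which enhance removal of the C-propeptide, had log2 changes of -0.57 (adjusted p = 0.242) and -0.26 (adjusted p = 0.255) at day 3. In the chronic set Pcolce2 was at -0.38 (adjusted p = 0.142) and Bmp1, the proteinase itself, at -0.31 (adjusted p = 0.276).

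Of the 13 turnover genes 11 were tested, and 4 at day 3 had an unadjusted p under 0.05, all higher, beside 8.72% of all genes higher. In the chronic set 1 was higher and 2 were lower at this threshold, beside 8.99% and 19.3% of all genes. The list median was 0.00 at day 3 and 0.01 in the chronic set, with 6 of 11 above 0 in each. Mmp13, a collagenase, averaged 26.3 ± 5.08 FPKM with follistatin and 9.74 ± 6.80 FPKM in controls at day 3 (SD, n = 4 and 3), a log2 change of 1.64 that was not called (adjusted p = 0.184, limma). Mmp9, a gelatinase, averaged 4.81 ± 2.03 FPKM with follistatin and 1.52 ± 1.05 FPKM in controls at day 3, a log2 change of 1.22 (adjusted p = 0.200). In the chronic set the smallest p belonged to the metalloproteinase inhibitors Timp1, at a log2 change of 0.68 (adjusted p = 0.0974), and Timp3, at -0.65 (adjusted p = 0.123). The 9 receptor genes gave 5 tested, of which Itga1, a chain of a collagen-binding integrin, was at -0.12 at day 3 and -0.75 in the chronic set (adjusted p = 0.113). Ddr1 was at -0.19 at day 3 and Ddr2 at -0.18 in the chronic set, both receptors that bind collagen directly.

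All 16 fibril partners were tested, with 2 at day 3 (1 higher, 1 lower) and 3 in the chronic set (all lower) at an unadjusted p under 0.05, beside 15.2% of all genes at day 3 and 19.3% lower in the chronic set. In the chronic set Ogn, a small proteoglycan, averaged 7.47 ± 2.12 FPKM with follistatin and 13.1 ± 1.76 FPKM in controls, a log2 change of -0.76 (adjusted p = 0.0572). Comp, a fibril-binding protein of tendon and cartilage that also stands on the tendon marker list, was at -1.07 (adjusted p = 0.0608). At day 3 Fbln2 was at -0.33 (adjusted p = 0.188) and Postn, a matricellular protein, at 0.55 (adjusted p = 0.327). All 10 basement membrane partners were tested, with 1 at day 3 and 3 in the chronic set at an unadjusted p under 0.05, all lower, beside 6.46% and 19.3% of all genes lower. Nid1, which links laminin to type IV collagen, was at -0.31 (adjusted p = 0.310) at day 3, and Lama5, a laminin chain, at -0.19. In the chronic set Agrn was at -0.51 (adjusted p = 0.0664) and Lama5 at -0.47 (adjusted p = 0.0931). List medians of the fibril partners were -0.19 at day 3 and -0.29 in the chronic set, and of the basement membrane partners -0.11 and -0.27.

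Across the 14 libraries, the genes whose log2(FPKM + 1) followed the leading member of each class most closely are given as a description. The libraries differ in treatment and day, and the 2 sets may have been scaled separately, so differences between the sets enter these correlations. Among 11306 genes, those closest to Col3a1 by Pearson's r were Loxl2 (0.914), Fbn1 (0.887) and Col5a2 (0.886). Closest to Col4a1 were Col4a2 (0.982), Pcdh12 (0.926) and Spon2 (0.908), and closest to Col6a1 were Col6a2 (0.954), Tmem41a (0.814) and Col3a1 (0.809). Closest to Col7a1 were Bysl (0.933), Ece2 (0.906) and Dmpk (0.886).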

How the data were processed

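Poly(A) RNA was sequenced from TruSeq libraries, per the labels' protocols. Reads were aligned with TopHat to mm10 and FPKM computed with Cuffdiff, per the submitters' processing notes, which give no versions. The authors deposited FPKM for each library and 2 tables of Cuffdiff comparisons, holding log2 fold changes, test scores, p-values and q-values. Of 24386 genes listed, 27 with symbols turned into dates were left out. Genes the authors marked HIDATA, having too many reads to estimate, were left out of tests (4 at day 3, 31 in the chronic set), since their FPKM can be listed as 0.

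Each set was fitted with limma 3.58.1 in R 4.3.3 (eBayes with trend, two-sided) on log2(FPKM + 1), where a gene's mean in the set reached 1 FPKM. Calls needed a p under 0.05 after Benjamini-Hochberg adjustment over all genes tested. The added 1 shrinks the changes of low genes. The fit was tested on simulated data. Relative depth used FPKM under 0.5, matched to ratios of whole reads up to 6 within 0.02 on the log2 scale. Depth limits the precision of low values, and no interval could be given for single values. The median over all genes of the difference of the effects was -0.11 as deposited and -0.00 after rescaling by the median ratio.

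The collagens and all gene lists were chosen with earlier results of these data known. Values in all libraries are given for called members and the 2 most abundant of each class. For the 3 with the smallest p in each set, values are given at least in the libraries of that set. From other lists, called members and the 2 with the smallest p in each set are named. Col1a1, Col6a3, Col6a5 and the day comparison were added after values were seen. Positions are from GENCODE M21. Alternatives are in the closing section.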

Additional observations from a re-analysis of the deposited data

Results flagged for a closer look

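In 4 of 88 groups of 4 follistatin libraries, one library stood farther from the rest than Dixon's limit allows, and chance flags about 1 in 20 groups. In the chronic set, Col6a5 read 3.43 FPKM in follistatin day 14 replicate 2, against 0.0751 to 0.157 FPKM in the other follistatin libraries. Also in the chronic set, Col2a1 read 0.369 FPKM in follistatin day 7 replicate 2, against 0.203 to 0.212 FPKM in the others. At day 3, Col6a2 read 17.65 FPKM in follistatin replicate 4, against 23.3 to 23.6 FPKM in the others. Col10a1 read 0.230 FPKM in follistatin day 3 replicate 2 and is listed at 0 in the others. No cause of these was tested.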

How the results depend on the processing

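The count of collagens called at day 3 and for the difference of the effects was 0 under every alternative run. The chronic count was 1 (Col7a1) as reported and 0 with no filter on low values (adjusted p = 0.057), with a mean of at least 5 FPKM (Col7a1 then not tested), with a replicate block (adjusted p = 0.115) and with the day 7 libraries alone (log2 change 0.79, adjusted p = 0.280). It was 0 to 1 when each library was left out in turn. The log2 change of Col7a1 stayed above 0.63 in all of these that tested it. The cause was not tested. For day 14 minus day 7 the count was 0 as reported, and 1 (Col1a2) after rescaling by the median ratio. When each library was left out in turn, the class medians at day 3 were -0.17 to 0.13 (fibrillar), -0.34 to -0.11 (basement membrane) and -0.04 to 0.08 (other). The chronic medians were -0.29 to 0.15, -0.48 to -0.00 and -0.07 to 0.37, lowest without control day 14 replicate 1 in all 3 classes.

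Whether replicate numbers pair the libraries could not be settled from so few libraries. Deviations of same-numbered libraries correlated at -0.056 to -0.033 at day 3, against -0.067 to 0.089 for other pairs. In the chronic set they correlated at 0.018 to 0.107, against -0.12 to 0.03 for other pairs. These deviations were from each treatment's mean over days 7 and 14 together, so differences between the days enter them. Same-numbered libraries always share a day, and the other pairs that share a day correlated at 0.012 to 0.025. The highest chronic values, 0.107 and 0.061, were both of same-numbered libraries, but not every library correlated best with its own number. The replicate block, here and above, used only libraries whose number occurs under both treatments on a day. It therefore left out follistatin day 3 replicate 4 and follistatin day 14 replicate 2. With the replicate block, all genes called numbered 13 in place of 168 at day 3 and 0 in place of 608 in the chronic set. Blocking and fewer libraries cannot be told apart in these counts. Over all genes, leaving out each library gave 37 to 146 calls at day 3 and 36 to 892 in the chronic set. The chronic count was 284 with no filter, 10 with day 7 alone and 2098 with all 14 libraries in 1 fit. The difference of the effects was called for 10 genes, and for 2 to 30 with each library left out, 2 with no filter, 3 with the replicate block, 6 after median ratio rescaling and 24 with HIDATA genes kept. Day 14 minus day 7 was called for 8 genes, and for 2 to 14 with each library left out. The chronic calls were 247 higher and 361 lower as deposited, 313 and 231 after rescaling by the median ratio, and 426 and 299 after quantile normalization.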
